A study of Mus musculus with 59 samples.

Results

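The 10 genes described here encode heat shock proteins and chaperones of mouse skeletal muscle: Hspa1a, Hspa1b, Hspa8, Hsph1, Hspb1, Hspb7, Cryab, Dnajb1, Hsp90aa1 and Bag3. They were taken by symbol from an expression table of 47643 genes, where all 10 have a row, and all 10 passed the filter on low values in every fit. Chaperones bind unfolded or misfolded proteins and either hold them, refold them or pass them on for degradation. In stressed cells HSF1 drives transcription of the inducible HSP70 genes and of many co-chaperones. Muscle also keeps a constant supply of small heat shock proteins, which bind desmin and other parts of the sarcomere, and BAG3 links them to HSP70 for the turnover of damaged filament proteins.

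The mice were 4-month-old female NCI Ath/nude animals, a strain without a thymus and therefore short of mature T cells. Each carried a human patient-derived melanoma xenograft that either did (cachectic) or did not (non-cachectic) cause wasting. In both diaphragm melanoma groups a further set received rFibcd1, a recombinant form of the secreted protein Fibcd1, and the rest a mock injection of bovine serum albumin in saline, both given intraperitoneally. The libraries comprised 9 non-cachectic mock, 10 cachectic mock, 10 non-cachectic rFibcd1 and 10 cachectic rFibcd1 diaphragms, and 5 cachectic and 5 non-cachectic tibialis anterior (TA) and soleus muscles each, whose labels name no injection. Each melanoma condition rests on 1 xenograft, and no tumor-free mice are among the libraries, so xenograft and cachexia cannot be told apart and cachectic is compared only with another tumor.

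Values are TPM, a transcript abundance scaled for transcript length and to the same sum in every library, so sequencing depth is unknown. Between 16436 and 19456 genes were above 0 per library. In whole muscle, fewer cells of a type and less RNA per cell cannot be told apart. The TA libraries fitted their label, with a summed level of 6 slow-fiber markers of 36.8 to 66.4 TPM against 23629 to 39499 TPM in the soleus. The 59 libraries fall into 2 states by the pseudogene Pcna-ps2, called high at 1 TPM or more. Among the diaphragms 26 were in the high state, namely 3 of 9 non-cachectic mock, 9 of 10 cachectic mock, 6 of 10 non-cachectic rFibcd1 and 8 of 10 cachectic rFibcd1. All cachectic limb muscles were in the high state and all non-cachectic ones in the low state, so in the TA and soleus the state and the melanoma cannot be told apart. Cachectic library 8 of the TA (numbers are those of the table's columns) stood apart from its group, and values without it are given beside several results.

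Upstream sequence was inspected for the genes that moved together in the soleus. RefSeq promoter entries (GRCm38.p6) were found for 7 of the 10 genes; Hspa8, Cryab and Hsp90aa1 had none. The heat shock element, the binding site of HSF1, is built of inverted nGAAn units, and a 2-unit form was searched as GAANNTTC or TTCNNGAA, which cover both strands because each is its own reverse complement. The 250 bases before the start sites are printed 5′ to 3′ on the gene's strand, with matches in capitals, because Hspa1a, Hspa1b, Hspb1 and Hspb7 rose together in the soleus. Hspa1a and Hspa1b lie side by side on the minus strand (chr17:34972157-34972406 and chr17:34959239-34959488), Hspb1 on the plus strand (chr5:135887669-135887918) and Hspb7 on the plus strand (chr4:141420529-141420778).
Hspa1a: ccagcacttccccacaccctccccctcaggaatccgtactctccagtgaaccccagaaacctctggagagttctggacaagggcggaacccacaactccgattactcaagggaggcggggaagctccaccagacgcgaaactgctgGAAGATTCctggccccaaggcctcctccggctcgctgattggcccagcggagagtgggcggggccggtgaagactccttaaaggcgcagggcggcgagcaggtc
Hspa1b: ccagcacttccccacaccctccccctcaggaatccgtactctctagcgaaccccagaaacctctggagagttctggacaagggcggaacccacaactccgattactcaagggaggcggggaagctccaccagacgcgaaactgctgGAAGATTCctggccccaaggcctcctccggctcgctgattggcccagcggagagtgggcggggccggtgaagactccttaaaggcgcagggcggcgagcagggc
Hspb1: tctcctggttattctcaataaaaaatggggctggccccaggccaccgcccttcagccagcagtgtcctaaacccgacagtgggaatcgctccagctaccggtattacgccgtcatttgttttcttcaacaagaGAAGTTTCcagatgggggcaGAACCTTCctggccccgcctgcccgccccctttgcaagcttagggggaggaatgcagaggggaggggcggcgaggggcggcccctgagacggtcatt
Hspb7: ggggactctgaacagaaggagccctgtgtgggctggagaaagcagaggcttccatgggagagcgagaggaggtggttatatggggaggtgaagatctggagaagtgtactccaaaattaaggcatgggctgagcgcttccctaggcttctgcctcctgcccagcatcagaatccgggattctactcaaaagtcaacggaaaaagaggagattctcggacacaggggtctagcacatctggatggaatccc
The Hspa1a and Hspa1b stretches differ at 3 of 250 bases (98.8% identical), and their match lies at -104 to -97 from the start site. Hspb1 holds 2 matches, from -117 to -110 and from -97 to -90. In the Hspb7 stretch these letters are not present. Of the other entries, both for Hsph1 hold 1 match, and those for Dnajb1 and Bag3 hold none. The 2-unit form occurs in 12.8% of 32841 promoter entries of this length. The 3-unit heat shock element, which adds a further inverted unit to the shorter form and was searched on both strands, occurs in 0.466% of entries and in none of the 7 genes. These matches describe letters, not binding.

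In the GENCODE annotation of GRCm38 the genes lie at chr17:34969190-34972156 (Hspa1a), chr17:34956436-34959238 (Hspa1b), chr9:40800984-40810087 (Hspa8), chr5:149614287-149636376 (Hsph1), chr5:135887919-135889563 (Hspb1), chr4:141420779-141425311 (Hspb7), chr9:50751325-50756636 (Cryab), chr8:83608193-83612653 (Dnajb1), chr12:110690605-110702728 (Hsp90aa1) and chr7:128523616-128546981 (Bag3). Some of the values rest on sequence that other genes share. Of the 100-base windows of the longest annotated transcripts, 47.1% of Hspa1a windows occur in Hspa1b and 49.9% of Hspa1b windows in Hspa1a, so how reads were divided between this pair is uncertain. Hspb1 shares 42.7% of its windows with the pseudogene Hsp25-ps1, which stood at 6.83 TPM or below in every library. Hspa8 shares 31.6% and Hsp90aa1 47.5% with other loci. Hspb7, Cryab, Dnajb1, Hsph1 and Bag3 share none. Cryab overlaps Hspb2 and Hspa1a overlaps Gm20481 on the opposite strand. The submitters describe the library kit as stranded and the study's methods name another kit, so the strand handling of these pairs is uncertain.

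Per length, the 3 small heat shock proteins dominated the group. Hspb1, Hspb7 and Cryab together made up 63.6 to 89.99% of the summed TPM of the 10 genes in a diaphragm, 64.3 to 80.5% in a TA and 83.9 to 93.2% in a soleus. The sum itself ranged from 1198 to 3750 TPM in the TA, from 2344 to 7652 TPM in the diaphragm and from 5466 to 20007 TPM in the soleus, where it exceeded 1% of all TPM in every cachectic library. The cachectic soleus held the highest of the 8 group means for 7 genes, the exceptions being Dnajb1 and Hsp90aa1 (cachectic rFibcd1 diaphragm) and Hsph1 (non-cachectic rFibcd1 diaphragm). The non-cachectic TA held the lowest for 9 genes and the cachectic TA for Cryab. Of the 70 steps between neighbouring group means, 13 exceeded the larger of their SDs. These included the step from the TA groups to the group above them for Hspa1a, Hspa1b, Hspa8, Cryab, Dnajb1, Hsp90aa1 and Bag3. The neighbouring diaphragm groups lay within that spread of each other for every gene.

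**Figure D1:**
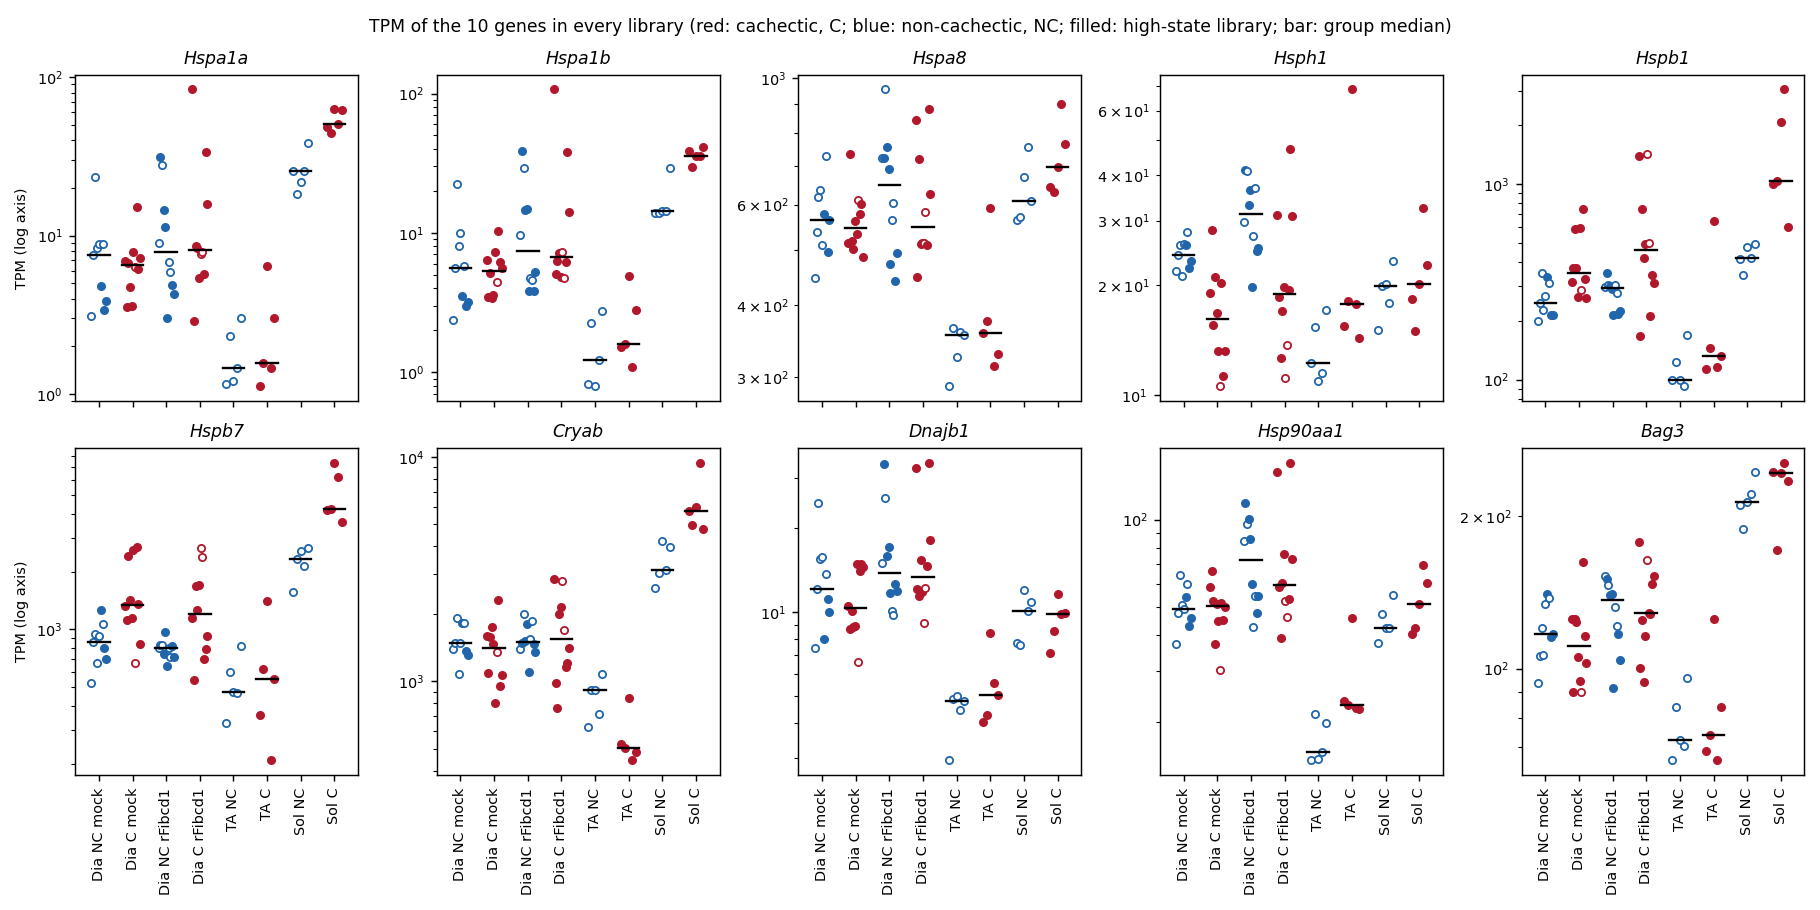
TPM of each gene (log axis) in every library of the 8 groups, for diaphragm (Dia), TA and soleus (Sol) with cachectic (C, red) or non-cachectic (NC, blue) melanoma. Filled points are high-state libraries, open points low-state libraries and bars group medians. The TA is lowest for most genes, and the 5 cachectic soleus libraries lie above the 5 non-cachectic ones for Hspa1a, Hspa1b, Hspb1, Hspb7 and Cryab. The share of all genes whose soleus groups separate so was not computed.

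The soleus, a postural muscle of slow fibers, gave the clearest difference between cachectic and non-cachectic mice. Hspb1, Hspb7, Hspa1b, Hspa1a and Cryab rose and none of the 10 fell (limma on log2(TPM + 1), Benjamini-Hochberg adjusted over 11957 genes, called under 0.05). Of all genes tested, 25.1% were called and 17.5% were called higher, against 5 of these 10. The share of all genes whose groups do not overlap was not computed here or for the TA, so non-overlap below only describes the genes named. All 5 calls held under each alternative run, except that summing Hspa1a with Hspa1b makes 1 gene of them and leaves 4.

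Hspb1 (HSP25), a small heat shock protein that guards actin and desmin filaments, changed most. It stood at 413, 345, 479, 420 and 492 TPM in the non-cachectic soleus. In the cachectic soleus it stood at 1007, 1043, 2070, 3050 and 600 TPM. The groups did not overlap, and libraries 8 and 9 of the cachectic group were far above the other 3. The mean rose 3.62-fold, or by 1.63 ± 0.36 on the log2 scale (SE, adjusted p = 0.00749, limma, n = 5 and 5).

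Hspb7 (cvHSP), a small heat shock protein of heart and skeletal muscle, lay at 1567, 2314, 2576, 2144 and 2649 TPM without cachexia. With cachexia it lay at 4177, 4217, 7340, 6220.5 and 3631 TPM. Every cachectic library was above every non-cachectic one, and library 8 was the highest. The log2 fold change was 1.16 ± 0.21 (2.27-fold, adjusted p = 0.00293, limma).

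Cryab (alpha-B crystallin), the small heat shock protein mutated in some desmin-related myopathies, was measured at 2612, 3040, 4209, 3126 and 3964.5 TPM in the non-cachectic soleus. The cachectic libraries held 5754, 4984, 5964, 9385 and 4756 TPM. The groups were apart, with library 9 alone near the top. Cryab rose by 0.84 ± 0.19 on the log2 scale (1.82-fold, adjusted p = 0.00947, limma). Hspb2, on the opposite strand, rose 1.27-fold (adjusted p = 0.0324, limma), which did not pass under median-ratio scaling (adjusted p = 0.109).

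Hspa1a, one of the pair of stress-inducible HSP70 genes, stood at 25.6, 18.3, 21.6, 25.7 and 38.4 TPM in the non-cachectic soleus and at 48.6, 44.5, 62.6, 50.8 and 61.8 TPM in the cachectic soleus. Its twin Hspa1b stood at 13.9, 13.9, 14.4, 14.4 and 29.1 TPM and at 38.4, 29.7, 35.8, 35.8 and 41.6 TPM. Neither gene's groups overlapped, although non-cachectic library 65 came within 1 TPM of the lowest cachectic library for Hspa1b. Hspa1a rose by 1.05 ± 0.17 (2.07-fold, adjusted p = 0.00187) and Hspa1b by 1.09 ± 0.19 (2.12-fold, adjusted p = 0.00222) on the log2 scale (limma).

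The other 5 genes did not pass the test in the soleus. Hspa8, the constitutive HSP70, had a log2 fold change of 0.19 (95% interval -0.07 to 0.45). For Hsph1, the HSP110 nucleotide exchange factor of HSP70, it was 0.13 (-0.26 to 0.53). The J-protein gene Dnajb1, whose product loads substrates onto HSP70, had -0.03 (-0.35 to 0.29). Hsp90aa1, the inducible cytosolic HSP90, had 0.21 (-0.13 to 0.55). For Bag3, the co-chaperone that binds both HSP70 and small heat shock proteins, it was 0.08 (-0.17 to 0.33). The groups overlapped for each of the 5.

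Of 82 further chaperone-network genes, 80 were tested in the soleus, where 28 (35%) rose and 1 fell, beside 17.5% of all genes called higher (20 and 2 after median-ratio scaling, beside 14.4% and 13.7% of all genes), with a median log2 fold change of 0.25 against 0.09 over all genes. Des (desmin), the intermediate filament that small heat shock proteins bind, rose 3.31-fold (adjusted p = 0.000375). Flnc (filamin C), a Z-disc protein that BAG3 and HSPB8 help to clear, rose 2.37-fold (adjusted p = 0.00153). Hspb8, the small heat shock protein that works with BAG3, rose 1.73-fold (adjusted p = 0.00535), and the mitochondrial chaperonin Hspd1 fell to 0.776 of its non-cachectic mean (adjusted p = 0.0401, all limma). Among the 4 small heat shock proteins tested outside the 10, 3 rose. Hsf1, the main heat shock transcription factor, was 1.12 times its non-cachectic mean (adjusted p = 0.141), and Hsf2, a related factor, rose 1.38-fold (adjusted p = 0.00348).

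Other gene lists moved with these changes in the soleus. Of 8 immediate-early genes, which can respond to handling and dissection, 7 were tested. In this list 2 rose and 1 fell, among them the stress factor Atf3 (3.54-fold higher, adjusted p = 0.00624) and Egr1 (0.536 of the non-cachectic mean, adjusted p = 0.0260). The summed level of the 8 ranged from 103 to 201 TPM without and from 194 to 269 TPM with cachexia. Slow-fiber markers summed to 23629 to 30379 TPM and to 27088 to 39499 TPM, and 2 of 6 rose. Neutrophil markers summed to 3.08 to 4.66 TPM and to 7.33 to 31.7 TPM, and 2 of 2 tested rose. Fibroblast and tendon markers summed to 209 to 349 TPM and to 57.6 to 198 TPM, and 2 of 5 fell. The sums of these last lists did not overlap between groups. Their part in the chaperone changes was not tested.

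**Figure D2:**
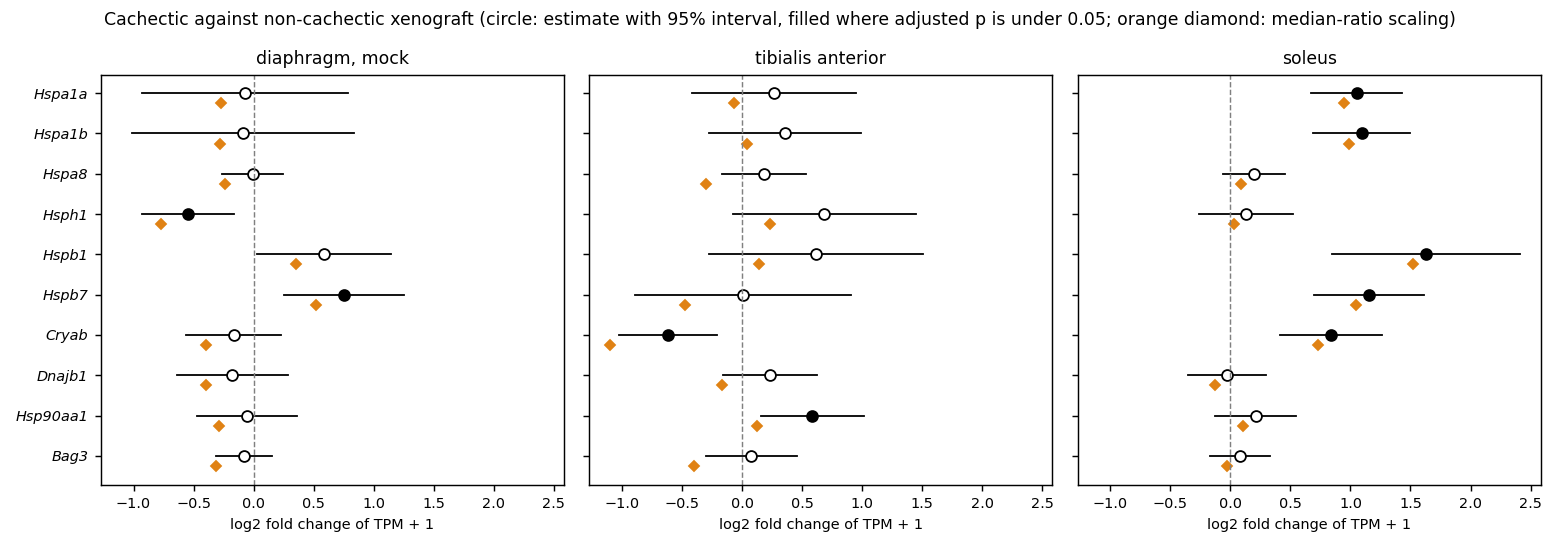
Log2 fold change of TPM + 1 for each gene, cachectic against non-cachectic, in mock diaphragm, TA and soleus. Circles are estimates with 95% intervals, filled where the limma adjusted p is under 0.05, and orange diamonds are estimates after median-ratio scaling. Filled circles stand at positive values for 5 genes in the soleus, while Cryab is negative in the TA.

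In the TA, a fast muscle, Cryab fell and Hsp90aa1 rose in cachectic mice, 2 of the 10 genes against 60.2% of all 11105 genes tested. The fits in this muscle depend on scaling, since the median gene moved by 0.41 on the log2 scale. After median-ratio scaling, which sets that median to about 0, the share of calls that were higher went from 93.7% to 49.1%.

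Cryab stood at 627, 916, 916, 717 and 1075 TPM in the non-cachectic TA and at 523, 504, 843, 445 and 485 TPM in the cachectic TA. All cachectic libraries but library 8 lay below every non-cachectic one. The log2 fold change was -0.62 ± 0.19 (0.659 of the non-cachectic mean, adjusted p = 0.0170, limma, n = 5 and 5). It was -0.77 without library 8 and -1.10 under median-ratio scaling, both past the threshold.

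Hsp90aa1 was measured at 14.8, 21.4, 14.9, 15.7 and 19.9 TPM without and at 23.6, 22.9, 45.7, 22.4 and 22.2 TPM with cachexia. The groups did not overlap, and library 8 was far above the other cachectic libraries. Hsp90aa1 rose by 0.59 ± 0.20 on the log2 scale (1.58-fold, adjusted p = 0.0253, limma). Median-ratio scaling reduced this to 0.13 (adjusted p = 0.412), so the call rests on the scale of TPM, and it was also lost when non-cachectic library 61, 63 or 64 was left out, with the highest adjusted p, 0.0607, without library 63.

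Cachectic library 8 of the TA was the highest of its group for all 10 genes. Its Hsph1 level was 68.6 TPM against 14.3 to 18.0 TPM in the other 4 cachectic libraries. Its Hspb1 level was 648 TPM against 114 to 145 TPM. Without that library Hsph1 had a log2 fold change of 0.29 (adjusted p = 0.0725) in place of 0.69 (adjusted p = 0.103), and Hspb1 one of 0.15 in place of 0.62. Hspa1a and Hspa1b, at 0.790 to 6.38 TPM, were near the lower end of what was measured and did not pass. Hspa8 (0.18) and Bag3 (0.08) did not pass either, and under median-ratio scaling both turned to a decrease that passed, of -0.30 and -0.40.

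Among the 80 network genes tested in the TA, 46 (57.5%) rose and 2 fell, beside 56.4% of all genes called higher. After median-ratio scaling 9 passed as higher and 19 as lower, beside 20% and 20.8% of all genes. Des rose 3.25-fold (adjusted p = 8.70e-05) and Hsp90ab1, the constitutive HSP90, 2.47-fold (adjusted p = 0.00167). The ER lectin chaperone Calr rose 2.51-fold (adjusted p = 0.0180), with no call under median-ratio scaling (adjusted p = 0.0625). Library 8 held 2563 TPM of Hsp90ab1 and 416 TPM of Calr, against 1053 to 1207 and 98.9 to 115 TPM in the other 4 cachectic libraries. Without it Hsp90ab1 was 1.97-fold and Calr 1.60-fold higher (adjusted p = 6.75e-06 and 2.89e-05). Dnaja4 and Dnajb5, which encode J-proteins, fell to 0.694 and 0.715 of their non-cachectic means (adjusted p = 0.0293 and 0.00955, limma). Hsf1 rose 1.88-fold and Hsf2 1.56-fold (adjusted p = 0.00711 and 0.0177), the latter with no call under median-ratio scaling (adjusted p = 0.288). Library 8 held 67.5 TPM of Hsf1 and 43.2 TPM of Hsf2, against 29.1 to 34.2 and 21.7 to 26.0 TPM in the other 4 cachectic libraries. Without library 8 Hsf1 was 1.53-fold, Hsf2 1.32-fold and Des 2.82-fold higher (adjusted p = 3.35e-05, 0.000803 and 4.30e-06, limma). Of the 7 immediate-early genes tested, 2 rose, and their summed level ranged from 55.6 to 112 TPM without and from 100 to 280 TPM with cachexia. Macrophage markers rose for 5 of 5 tested, neutrophil markers for 2 of 2 (sums of 1.06 to 3.81 and 7.01 to 53.5 TPM), and smooth-muscle markers for 2 of 4 (sums of 51.4 to 93.9 and 110 to 200 TPM). Of 6 slow-fiber markers 5 rose and Myl3 fell, to 0.156 of its non-cachectic mean, and their summed level was 40.2 to 66.4 TPM without (median 56.6) and 36.8 to 52.0 TPM with cachexia (median 49.1). Their part in the chaperone values was not tested.

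In the mock diaphragm, the main breathing muscle, Hspb7 rose and Hsph1 fell, 2 of 10 genes where 33.5% of 13426 were called. The median gene moved by 0.20 on the log2 scale, and the share of higher calls went from 92.0% to 45.9% under median-ratio scaling. Hspb7 ranged from 525 through a median of 856 to 1269 TPM in 9 non-cachectic mock libraries and from 670 through 1346 to 2687 TPM in 10 cachectic mock libraries. The groups overlapped widely, and the spread was larger with cachexia. The log2 fold change was 0.75 ± 0.25 (1.81-fold, adjusted p = 0.0182, limma). Under median-ratio scaling it was 0.52 (adjusted p = 0.194).

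Hsph1 ranged from 21.1 through 24.2 to 27.9 TPM without and from 10.5 through 16.1 to 28.2 TPM with cachexia. All cachectic libraries but the highest lay below the whole non-cachectic range, and the highest lay just above it. Hsph1 fell by 0.55 ± 0.19 on the log2 scale (0.697 of the non-cachectic mean, adjusted p = 0.0244, limma), and median-ratio scaling made the decrease larger, -0.77 (adjusted p = 0.00314). Within the high state Hsph1 averaged 17.6 ± 5.21 TPM (SD, n = 9) with and 23.8 ± 1.79 TPM (n = 3) without cachexia. There Hspb7 averaged 1656 ± 705 and 922 ± 304 TPM. Neither gene passed when only high-state libraries were fitted (adjusted p = 0.288 and 0.132). With the state as a term both did (adjusted p = 0.0259 and 0.0392).

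The other 8 genes did not pass in the mock diaphragm. Hspb1 came nearest, at 199 through 247 to 352 TPM without and 263 through 350 to 746 TPM with cachexia, a log2 fold change of 0.59 (adjusted p = 0.0937, limma). Cryab ranged from 1076 to 1915 TPM and from 797 to 2314 TPM, with a log2 fold change of -0.16 (95% interval -0.56 to 0.23). Those of Hspa1a and Hspa1b, -0.07 and -0.09, had the widest intervals of the group, -0.93 to 0.79 and -1.01 to 0.84. For Hspa8, Dnajb1, Hsp90aa1 and Bag3 the values lay between -0.18 and -0.01.

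Of the 80 network genes tested in the mock diaphragm, 31 (38.8%) rose and 4 fell, beside 30.9% of all genes called higher. After median-ratio scaling 2 passed as higher and 12 as lower, beside 7.42% and 8.74% of all genes. Des rose 2.14-fold (adjusted p = 0.000264). The ER chaperone partners Sdf2l1 and Manf rose 1.69-fold and 1.44-fold (adjusted p = 0.0364 and 0.0421), without calls under median-ratio scaling (adjusted p = 0.149 and 0.275). Ahsa2, an activator of the HSP90 ATPase, fell to 0.775 of its non-cachectic mean, Dnaja4 to 0.837 and Hspd1 to 0.872 (adjusted p = 0.00936, 0.0447 and 0.0369, limma). Hsf1 rose 1.31-fold (adjusted p = 0.00568), which did not pass under median-ratio scaling (adjusted p = 0.500), and Hsf2 was 1.04 times its non-cachectic mean (adjusted p = 0.471). Of 7 immediate-early genes 2 rose, Junb (3.49-fold) and Ier3 (1.59-fold). Neutrophil markers rose for 3 of 3 tested, with summed levels of 3.00 to 20.6 TPM without and 9.56 to 57.1 TPM with cachexia. Macrophage markers rose for 2 of 6 (sums of 162 to 690 and 277 to 1340 TPM), smooth-muscle markers rose for 3 of 4, and 0 of 5 adipocyte markers passed (572 to 1416 and 764 to 3449 TPM). Their part in the chaperone values was not tested.

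Under rFibcd1, 1 of the 10 genes passed between cachectic and non-cachectic diaphragms, where 9.11% of all genes did. Hsph1 ranged from 19.7 through 31.3 to 41.2 TPM without and from 11.1 through 18.9 to 47.1 TPM with cachexia. The groups overlapped, with most cachectic libraries below or at the lower edge of the non-cachectic range and the highest above it. It fell by 0.59 ± 0.18 (0.702 of the non-cachectic mean, adjusted p = 0.0381, limma). It was lost when any of 12 single libraries was left out, with adjusted p-values from 0.00607 to 0.0788 over all omissions (the latter without cachectic library 3), and was 0.483 with high-state libraries only.

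Hspb1 and Hspb7 differed in the same direction as in mock mice without passing. Hspb1 ranged from 214 through 294 to 349 TPM without and from 167 through 458 to 1430 TPM with cachexia (log2 fold change 0.79, adjusted p = 0.0549, limma). Hspb7 ranged from 648 through 797 to 965 TPM and from 545 through 1206 to 2657 TPM (0.64, adjusted p = 0.0827). In both genes the cachectic range enclosed the non-cachectic one. Of the 80 network genes tested, 5 (6.25%) rose and 2 (2.5%) fell, beside 7.14% and 1.97% of all genes. After median-ratio scaling 1 passed as higher and 2 as lower, beside 4.27% and 5.13%. Des rose 1.96-fold (adjusted p = 0.00763), Dnajc8 1.25-fold (adjusted p = 0.0131) and the HSP90 co-chaperone Ptges3 1.22-fold (adjusted p = 0.0386). Hspa4l, of the HSP110 family, fell to 0.691 of the non-cachectic mean (adjusted p = 0.0183) and Ahsa2 to 0.807 (adjusted p = 0.0384, limma). Dnajc8, with an adjusted p of 0.132, and Ptges3, with 0.114, were not called under median-ratio scaling. Hsf1 and Hsf2 were 1.09 and 1.06 times their non-cachectic means (adjusted p = 0.534 and 0.482). Neutrophil markers summed to 4.45 to 163 TPM without (median 9.42) and 10.1 to 343 TPM with cachexia (median 34.6). Immediate-early genes summed to 94.6 to 184 TPM and 105 to 368 TPM, and fibroblast and tendon markers to 254 to 344 TPM and 53.5 to 809 TPM. These ranges overlapped, and their part in the chaperone values was not tested.

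In the main fit, injection of rFibcd1 was not followed by a called change in any of the 10 genes. With array weights some of them were called in non-cachectic diaphragms. In cachectic diaphragms 0.0447% of all genes were called (6 genes, with 1412 of 13426 at an unadjusted p under 0.05), with 3 of the 10 under an unadjusted p of 0.05 in limma, Hsp90aa1, Dnajb1 and Bag3. Dunn tests also called 0, with 3 under an unadjusted p of 0.05. The means nevertheless differed. Hspa1b ranged from 3.38 through 5.36 to 10.3 TPM in mock and from 4.73 through 6.75 to 107 TPM in rFibcd1 libraries, a ratio of means of 3.61 (log2 fold change 0.89 ± 0.44, adjusted p = 0.479, limma). Hspa1a ranged from 3.53 through 6.54 to 15.1 TPM and from 2.87 through 8.15 to 83.8 TPM, a ratio of 2.64 (0.70 ± 0.41, adjusted p = 0.563).

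The medians of the pair were close and the means were set by few libraries. Library 1 of the rFibcd1 group held 191 TPM of Hspa1a and Hspa1b together and library 17 held 72.2 TPM, while the group median was 15.0 TPM. Library 1 was also the highest of its group for the immediate-early sum (368 TPM, group median 164) and held 110 TPM of Atf3. Library 17 held 152 TPM and 25.3 TPM. The part of the immediate-early genes' change in these values was not tested. Without both libraries, an alternative chosen after seeing the data, the log2 fold changes were 0.27 for Hspa1b and 0.15 for Hspa1a (adjusted p = 0.999 for both, limma), and 0 of the 10 had an unadjusted p under 0.05.

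In non-cachectic diaphragms 0.417% of genes were called between rFibcd1 and mock (2332 of 13426 had an unadjusted p under 0.05), none of them among the 10, with 1 member under an unadjusted p of 0.05 in limma and 1 in Dunn tests. That gene was Hsp90aa1, named after its values were seen, which ranged from 37.1 through 49.3 to 64.6 TPM in mock and from 42.5 through 72.3 to 114 TPM in rFibcd1 libraries (log2 fold change 0.49, 95% interval 0.08 to 0.91, adjusted p = 0.263, limma). In cachectic diaphragms its log2 fold change was 0.51 (0.11 to 0.92, adjusted p = 0.359), and 0.23 ± 0.17 (SE) without rFibcd1 libraries 1 and 17 (adjusted p = 0.991). The ranges overlapped in both. The difference between the melanoma effects with and without rFibcd1 was called for 0.0223% of genes and 0 of the 10, with 1180 of 13426 genes and 0 of the 10 under an unadjusted p of 0.05 (limma). Its intervals were wide, from -1.03 to 1.55 for Hspa1b and from -0.57 to 0.49 for Hsph1. In the 80 network genes tested, these 3 comparisons gave 0 calls, and Hsf1 and Hsf2 had none.

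In non-cachectic mice, compared with the TA, 9 genes were higher in the soleus and 0 lower, where 69.5% of all 13501 genes were called and 63.9% were called higher. The median gene moved by 0.47 on the log2 scale here, and by -0.44 from diaphragm to TA. After median-ratio scaling the same 9 genes still passed in the soleus, while the share of higher calls over all genes went from 91.9% to 49.7%.

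The inducible HSP70 pair led. Hspa1a averaged 25.9 ± 7.61 TPM in the soleus against 1.83 ± 0.817 TPM in the TA (SD, n = 5), a ratio of 14.2 (3.25 ± 0.35 on the log2 scale, SE, adjusted p = 1.04e-09, limma). Hspa1b averaged 17.1 ± 6.67 and 1.56 ± 0.880 TPM, a ratio of 10.9 (2.83 ± 0.35, adjusted p = 2.21e-08). The lowest soleus library was far above the highest TA library for both. On the log2(TPM + 1) scale these folds understate low genes.

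The small heat shock proteins followed. Hspb7 was 4.19-fold, Cryab 3.99-fold and Hspb1 3.68-fold higher in the soleus than in the TA (log2 fold changes 2.11, 2.00 and 1.90). Bag3 was 2.77-fold, Hsp90aa1 2.59-fold, Dnajb1 2.18-fold and Hspa8 1.88-fold higher. All 7 passed, with adjusted p-values from 3.10e-10 (Bag3) to 0.000303 (Dnajb1). Hsph1 was 1.43-fold higher without passing (adjusted p = 0.0899), and under median-ratio scaling the estimate was below 0 (-0.07). Without cachectic TA library 8, which enters this comparison only through the shared estimate of spread, Hsph1 passed (0.50, adjusted p = 0.0164) and all 10 genes were called.

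Compared with the diaphragm, 5 genes were higher in the soleus, where 38.8% of all genes were called and 22.1% called higher. Hspa1a was 3.24-fold, Hspb7 2.61-fold, Hspa1b 2.41-fold, Cryab 2.23-fold and Bag3 1.81-fold higher, with adjusted p-values from 3.33e-06 (Bag3) to 0.000632 (Hspa1b, limma). Dunn tests called none of the 10 here (adjusted p = 0.0945 to 0.201 for these 5), with 2 of the 10 under an unadjusted p of 0.05. Hspb1 was 1.63-fold higher (adjusted p = 0.0709; 0.0488 under median-ratio scaling), and without cachectic TA library 8 it passed (0.72, adjusted p = 0.0223), which made 6 of the 10. Dnajb1, Hsp90aa1 and Hsph1 had log2 fold changes of -0.35, -0.16 and -0.33, none past the threshold.

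All 10 genes were lower in the TA than in the diaphragm, where 72.5% of all genes were called and 64% called lower. The largest log2 fold changes were those of Hspa1a (-1.49), Hsp90aa1 (-1.48), Hspa1b (-1.45) and Dnajb1 (-1.32), and the smallest that of Bag3 (-0.61, adjusted p = 0.000126, limma). Median-ratio scaling left 5 of them below the threshold for a call and kept Hspa1a, Hspa1b, Hspb1, Dnajb1 and Hsp90aa1 called as lower. The controls of this comparison and the soleus comparison are the same 9 diaphragms. Marker sums of other cells differed too. In mock diaphragm and TA their medians were 409 and 30.3 TPM for macrophages and 113 and 0.380 TPM for mesothelium. For red blood cells they were 4609 and 473 TPM, and for fibroblasts and tendon 224 and 58.4 TPM. Only the fast-fiber list had a higher median in the TA. Liver markers reached 7642 TPM in a mock diaphragm library. Their part in the chaperone levels was not tested.

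**Figure D3:**
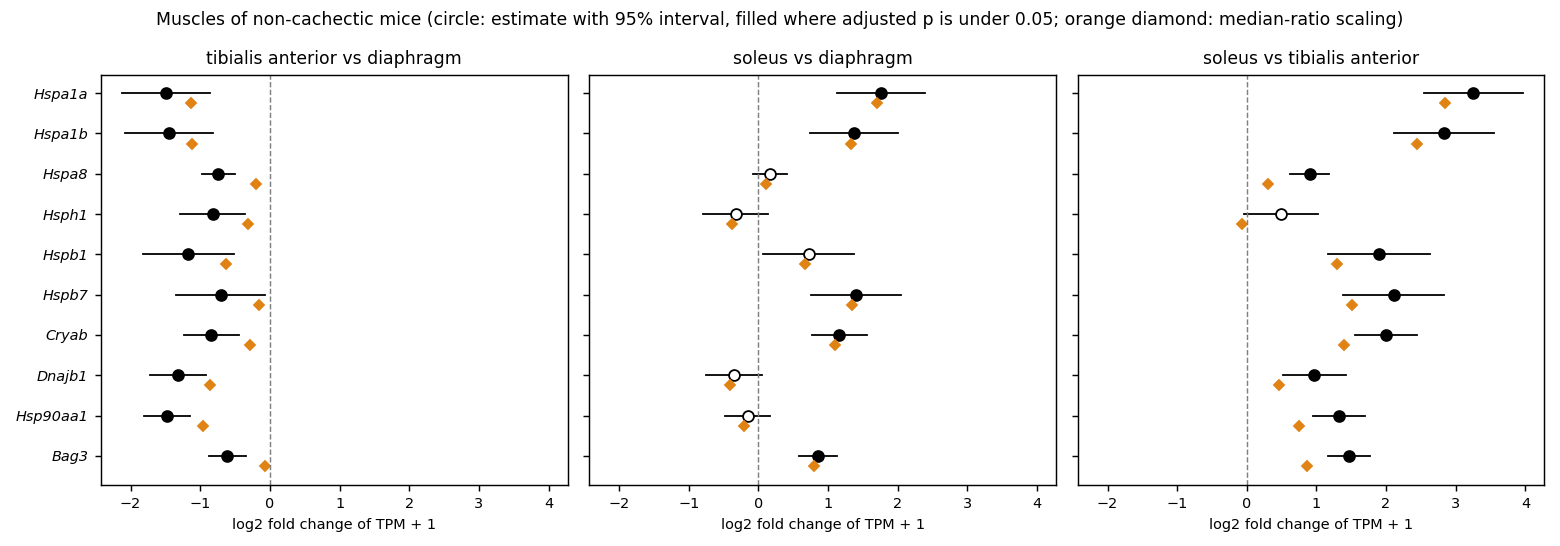
Log2 fold change of TPM + 1 for each gene between muscles of non-cachectic mice, with 95% intervals, filled circles where the limma adjusted p is under 0.05 and orange diamonds after median-ratio scaling. In the TA every circle lies below the diaphragm, and in the soleus Hspa1a stands 3.25 above the TA while Hsph1 is open.

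Of the 80 network genes tested, 66 (82.5%) were higher in the soleus than in the TA and 0 lower, beside 63.9% and 5.63% of all genes. After median-ratio scaling 19 were higher and 21 lower, beside 26.4% and 26.7% of all genes. Dnajb4, a J-protein of muscle, was 3.99-fold, Hspa2 4.08-fold and Hspa1l, an HSP70 gene beside Hspa1a, 3.06-fold higher. Against the diaphragm 27 (33.8%) were higher and 9 lower in the soleus, beside 22.1% of all genes called higher. After median-ratio scaling 28 were higher and 16 lower, beside 23.4% and 23.7% of all genes. Hspa2 was 4.19-fold, Hspa1l 3.42-fold and Hspb6, a small heat shock protein of muscle, 2.82-fold higher, while the ER chaperone genes Sdf2l1 and Pdia3 and the HSP70 relative Hspa12a stood at 0.427, 0.690 and 0.539 of the diaphragm mean. From diaphragm to TA 4 were higher and 50 (62.5%) lower, beside 64% of all genes called lower. After median-ratio scaling the balance turned, with 36 higher and 19 lower, beside 34.4% and 36% of all genes. Sdf2l1, Pdia3 and Pdia4 stood at 0.161, 0.298 and 0.307 of the diaphragm mean, and Synpo2, a BAG3 partner at the Z-disc, Dnajb12 and Dnaja2 were 1.68-fold, 1.41-fold and 1.25-fold higher.

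On the TPM scale Hsf1 was 1.52-fold higher in the soleus than in the TA (adjusted p = 0.00106) and 0.615 of the diaphragm mean in the TA (adjusted p = 3.91e-05), with no call between soleus and diaphragm (ratio 0.933, adjusted p = 0.622). Hsf2 was 1.49-fold higher in the soleus than in the TA (adjusted p = 7.98e-05) and 1.40-fold higher than in the diaphragm (adjusted p = 0.000346). Between TA and diaphragm it was not called (ratio 0.938, adjusted p = 0.463, all limma). Median-ratio scaling left neither factor called between soleus and TA (adjusted p = 0.983 and 0.783). Between TA and diaphragm it left Hsf1 uncalled (adjusted p = 0.180) and called Hsf2 as higher in the TA (adjusted p = 6.99e-07). The slow-fiber sum differed by orders of magnitude between TA and soleus, as given above. Its non-cachectic medians were 2402 TPM in mock diaphragm and 28464 TPM in soleus. Fast-fiber sums lay closer, with non-cachectic medians of 69007 TPM in TA, 26139 TPM in mock diaphragm and 11698 TPM in soleus. The part of these markers in the chaperone levels was not tested.

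The melanoma effect itself was compared between muscles. It differed between soleus and TA for Cryab, 1 of the 10 genes where 20.4% of all genes were called. Cryab rose in one muscle and fell in the other, a difference of 1.46 ± 0.31 on the log2 scale (adjusted p = 0.00191, limma). The call held under each alternative run. Without TA library 8, 3 genes passed, Cryab with 1.61, Hspb7 with 1.51 (adjusted p = 0.0310) and Hspb1 with 1.48 (adjusted p = 0.0219). With it Hspb7 had 1.15 (adjusted p = 0.0947) and Hspb1 1.01 (adjusted p = 0.145). With all libraries kept, both passed under median-ratio scaling (adjusted p = 0.0226 and 0.0379) and with array weights (adjusted p = 0.0264 and 0.00737). They also passed with the library number as a block (adjusted p = 0.0190 and 0.0410), where 41.2% of all genes were called.

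Between soleus and diaphragm the melanoma effect differed for Cryab as well (1.01 ± 0.27, adjusted p = 0.0378, limma), where 2.52% of genes were called. The call was lost when any of 12 single libraries (6 of the soleus and 6 of the diaphragm) was left out, cachectic soleus library 9 among them (0.84, adjusted p = 0.0844). Hspa1b (1.18), Hspa1a (1.12) and Hspb1 (1.04) had differences of like size without passing (adjusted p = 0.156, 0.177 and 0.241). With the number as a block Hspa1a (1.36, adjusted p = 0.0249) and Hspa1b (1.43, adjusted p = 0.0173) passed, where 7.36% of all genes were called. Only 8 of 10 same-numbered pairs of these muscles had r over 0.1, so a shared number is not shown to pair them. Between TA and diaphragm it differed for Hsph1 (1.23 ± 0.32, adjusted p = 0.0221), where 5.04% of genes were called. That call was lost without TA library 8 (0.83, adjusted p = 0.0507) or TA library 63 (1.17, adjusted p = 0.0522). With the number as a block Hsp90aa1 passed as well (0.59, adjusted p = 0.0485), where 17.2% of all genes were called.

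Of the network genes, 4 had a higher and 10 a lower melanoma effect in the soleus than in the TA, beside 1.26% and 19.1% of all genes. After median-ratio scaling 17 had a higher and 0 a lower effect, beside 6.87% and 3.98% of all genes. With the number as a block these were 10 and 22, beside 2.56% and 38.7%. Dnaja4 (0.99, adjusted p = 0.00204), Hspa1l (0.96, adjusted p = 0.0329) and Hspb8 (0.58, adjusted p = 0.0348) were on the higher side. Unc45b (-0.74), a myosin chaperone, Hsf4 (-0.68), Hspa2 (-0.68) and Hsf1 (-0.64) were on the lower side, and none of them passed under median-ratio scaling (adjusted p = 0.183, 0.176, 0.141 and 0.284). Against the diaphragm, 4 genes had a higher and 0 a lower effect in the soleus, beside 0.57% and 1.95% of all genes. After median-ratio scaling these were 7 and 0, beside 2.32% and 1.32%. The 4 included Hspb3 (0.92), Hspb8 (0.72) and Dnaja4 (0.71). In the TA 10 had a higher and 0 a lower effect than in the diaphragm, beside 4.33% and 0.711% of all genes. After median-ratio scaling 3 were higher and 5 lower, beside 2.06% and 2.98%. With the number as a block 17 were higher and 2 lower, beside 15% and 2.16%. The 10 were led by Hsp90ab1 (1.08), Unc45b (0.81) and Dnaja1 (0.75, adjusted p = 0.0743 under median-ratio scaling). Hsf2 was on the higher side there too (0.50, adjusted p = 0.0324, but 0.120 under median-ratio scaling).

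Within diaphragm groups the 10 genes were compared for how they varied from mouse to mouse. Correlations were taken over log2(TPM + 1) minus the group mean, separately in the 26 high-state libraries and in 12 low-state libraries (the single low-state cachectic mock library was left out). All 45 pairs were tested in each by permutation within groups (100000 resamples, two-sided), and p-values were adjusted by Benjamini-Hochberg over the 45. By Pearson's r 27 pairs passed in the high state and 10 in the low state, and 22 and 5 of them also passed by Spearman's rho. The share of all gene pairs that pass these tests was not computed, so the counts are not shown to be particular to the 10 genes.

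Hspa1a, Hspa1b, Dnajb1 and Hsp90aa1 had r from 0.71 to 0.97 with each other in both states. In the low state the rank test did not pass for Hsp90aa1 with Hspa1a or Hspa1b (permutation adjusted p = 0.0552 for each rho) or with Dnajb1 (0.108). In the high state Hspa1b and Dnajb1 had r = 0.91 and rho = 0.86 (permutation adjusted p = 0.000113 and 0.00015) and r = 0.87 without the 2 libraries farthest from the median of Hspa1b. In the low state they had r = 0.95 and rho = 0.88 (permutation adjusted p = 0.0109 and 0.0313) and r = 0.86 without 2. Hsp90aa1 and Hsph1 had r = 0.79 and rho = 0.75 in the high state (permutation adjusted p = 0.000375 and 0.00112) and r = 0.72 without 2. Their low-state values of r = 0.51 and rho = 0.32 did not pass (permutation adjusted p = 0.275 and 0.462), with r = 0.04 without 2. Hspa1a and Hspa1b had r = 0.97 and 0.96, which shared sequence makes hard to read.

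Hspb1 and Hspb7 varied together, with r = 0.77 and rho = 0.86 in the high state (permutation adjusted p = 0.000375 and 0.000225) and r = 0.88 without the 2 farthest libraries. In the low state r was 0.58 and rho 0.78 (permutation adjusted p = 0.0347 and 0.0484), with r = 0.88 without 2. Hspb7 showed no relation to Dnajb1 (r = 0.00) or Hsp90aa1 (r = -0.05) in the high state. In the low state those values were 0.55 and 0.54, neither of which passed. Over the 20 limb libraries, with no test, Hspb7 had r = 0.61 with Dnajb1 and 0.69 with Hsp90aa1. Hspb1 was also related to Hspa1a in the high state (r = 0.66, rho = 0.46, permutation adjusted p = 0.00662 and 0.0517, r = 0.47 without 2). With Hspa1b it had r = 0.57 (permutation adjusted p = 0.0258), but rho = 0.36 did not pass (0.131) and r was 0.29 without 2. With Hspa8 it had r = 0.52 and rho = 0.48 (permutation adjusted p = 0.0349 and 0.0444) and r = 0.50 without 2. In the low state Hspb1 had r = 0.37 with Hspa1a, 0.44 with Hspa1b and 0.13 with Hspa8, none past the threshold. Bag3 was related to Hspa1a in the high state (r = 0.79, permutation adjusted p = 0.000113) and to Hspb7 in the low state (r = 0.82, permutation adjusted p = 0.0109). Neither pair passed in the other state. Bag3 had r = 0.50 with Hspa1a in the low state and 0.30 with Hspb7 in the high state (permutation adjusted p = 0.182 and 0.213).

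**Figure D4:**
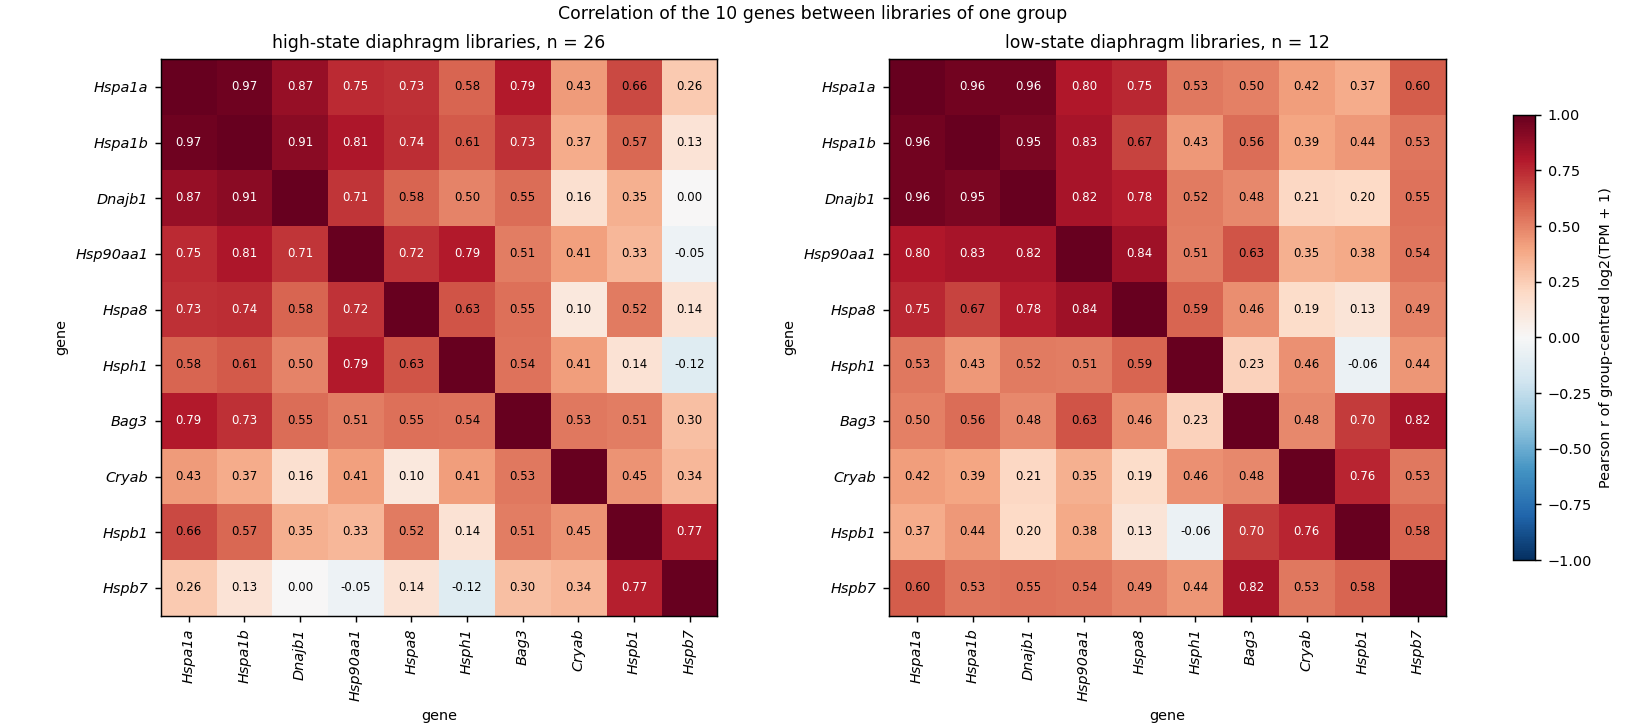
Pearson r of group-centred log2(TPM + 1) for every pair of the 10 genes, over 26 high-state diaphragm libraries (left) and 12 low-state ones (right), on a color scale from -1 to 1. Hspa1a, Hspa1b, Dnajb1 and Hsp90aa1 hold values of 0.71 to 0.97 in both panels, and Hspb1 with Hspb7 holds 0.77 and 0.58.

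Likeness to other genes was ranked by Pearson r of group-centred values over the 39 diaphragm libraries among 9058 genes with a mean of at least 5 TPM, and is a description only. The r values below are over all 39. Dnaja1 was most like Dnajb1 (0.86) and Hspa1b (0.80), and Siah2, a ubiquitin ligase gene, was most like Hspa1a (0.75). Flnc was most like Hspb1 (0.86), Hspb2 most like Cryab (0.80) and Ddx56 most like Hspb7 (0.89). Ahsa1, the HSP90 activator, was most like Hsph1 (0.87), P4ha1 most like Hsp90aa1 (0.84), Ahsa2 most like Hspa8 (0.70) and Dnaja4 most like Bag3 (0.81). With the library state also taken out, these values lay between 0.73 (Hspa1a and Siah2) and 0.89 (Hsph1 and Ahsa1). Over the 20 limb libraries, centred on their groups, the same pairs had r from 0.42 (Cryab and Hspb2) to 0.94 (Hsph1 and Ahsa1). The next genes in the ranking were Dnaja1 and Dnajb4 for Hspa1a, Siah2 and Nolc1 for Hspa1b, and Dnajb4 and Jmjd6 for Hspa8. For Hspb1 they were Ankrd2 and 2010111I01Rik, for Hspb7 Opn1mw and Dusp26, and for Cryab Tuba4a and Synpo2l. For Dnajb1 they were Mat2a and Nolc1, for Hsp90aa1 Ahsa2 and Creld2, for Hsph1 Ahsa2 and Stip1, and for Bag3 Stk40 and Lmna. The immediate-early sum, centred on the group, had r = 0.74 with Hspb1, 0.59 with Hspb7 and 0.46 with Hspa1a over the 39 diaphragms, and -0.08 with Hsph1.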

How the data were processed

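RNA of 59 mouse muscle libraries was sequenced by the authors, who mapped reads to the mm10 mouse genome with CLC Genomics Workbench and deposited TPM values (length-scaled transcript abundance) for 47643 genes. The annotation is not given in the sources used here, and the labels and the study's methods name different kits and instruments. All 59 columns were matched to a group by name, and 0 were left unmapped. Only TPM was used, so depth is unknown.

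Genes at 1 TPM or more in as many libraries as the smallest group of a fit were kept. Log2(TPM + 1) was fitted with limma 3.58.1 in R 4.3.3 (trended empirical Bayes) separately for 39 diaphragm, 10 TA and 10 soleus libraries, and for 39 libraries of 6 groups without rFibcd1. P-values were adjusted by Benjamini-Hochberg over all genes tested, with a call under 0.05, and measure only the spread between these samples, for which no separate cultures or litters are given. The code was tested on simulated data. Network genes were named as up to 3 called in each direction with the largest log2 fold changes and a mean of at least 5 TPM, and Hsf1, Hsf2 and the 3 genes most like each member were always named. The columns carry a number, and deviations of same-numbered libraries had r over 0.1 in 10 of 10 pairs of TA and soleus (0.196 to 0.493) and in 10 of 10 of TA and diaphragm (0.133 to 0.502), so a fit with the number as a block (1 correlation of 0.381 over the 3 muscles) is given beside the results it changes there. Alternatives covered pseudocount, filter, scaling, weights, Dunn tests, library state, replicate block and omitted libraries. The 10 genes and all lists were chosen with earlier results of these data known.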

Additional observations from a re-analysis of the deposited data

Results flagged for a closer look

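Of 80 gene and group combinations, 10 held a library far from the rest by Dixon's ratio, and chance gives about 1 in 20. Cachectic TA library 8 accounts for 5 of them, with 591 TPM of Hspa8 (next 376), 648 TPM of Hspb1 (next 145), 843 TPM of Cryab (next 523), 45.7 TPM of Hsp90aa1 (next 23.6) and 68.6 TPM of Hsph1 (next 18.0). Hspa1a stood at 23.3 TPM in non-cachectic mock diaphragm library 63 (next 8.86) and at 15.1 TPM in cachectic mock diaphragm library 32 (next 7.82). Hspa1b stood at 29.1 TPM in non-cachectic soleus library 65 (next 14.4). Low values were 2.96 TPM of Dnajb1 in non-cachectic TA library 61 (next 4.48) and 172 TPM of Bag3 in cachectic soleus library 7 (next 234).

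The effect of the cachectic melanoma differed between muscles in 3 cases by a test of the difference itself (limma). For Hsph1 it was 1.23 higher in the TA than in the diaphragm on the log2 scale. For Cryab it was 1.01 higher in the soleus than in the diaphragm and 1.46 higher in the soleus than in the TA.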

How the results depend on the processing

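The count of 10 genes called in the soleus stayed at 5 under every alternative run, or 4 with Hspa1a and Hspa1b summed. In the mock diaphragm 1 gene was called under median-ratio scaling and 0 with high-state libraries only. Under rFibcd1, cachectic against non-cachectic, 0 were called without a filter, with array weights, with high-state libraries only or by Dunn tests, 2 with a mean of at least 5 TPM or with the state as a term, and 0 to 3 as single libraries were left out (3 without cachectic library 2 or 16). Between rFibcd1 and mock in non-cachectic mice array weights gave 2. In the TA leaving out single libraries gave 1 to 2. From diaphragm to TA median-ratio scaling gave 5, and from diaphragm to soleus Dunn tests gave 0. For the melanoma effect, TA against diaphragm gave 0 to 1 with single libraries left out, and soleus against diaphragm 0 without a filter and 0 to 1. Soleus against TA gave 3 under median-ratio scaling, 3 with array weights and 1 to 3 with single libraries left out. In the low state 10 pairs of genes were correlated, over 12 libraries, against 28 over all. In the TA the log2 fold change of Hspa8 turned to -0.30 under median-ratio scaling, and that of Bag3 to -0.40 there and to -0.36 with quantile normalization. The cause was not tested, except that fewer samples or another set of genes enter some fits. TPM without counts leaves the precision of low values, such as Hspa1a in the TA, unknown.

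With the replicate block across muscles, the melanoma effect gave 2 calls for TA against diaphragm (Hsph1 and Hsp90aa1), 3 for soleus against diaphragm (Cryab, Hspa1a with 1.36 and Hspa1b with 1.43) and 3 for soleus against TA (Cryab, Hspb7 and Hspb1). Of all genes, 17.2%, 7.36% and 41.2% were called in these comparisons. Between muscles of non-cachectic mice the block gave 10 for TA against diaphragm, 9 for soleus against TA and 7 for soleus against diaphragm (Hspb1, higher, and Dnajb1, lower, were added). There 76.9%, 76.1% and 49.9% of all genes were called. Between soleus and diaphragm 8 of 10 same-numbered pairs had r over 0.1 (0.0101 to 0.450), so a shared number is not shown to pair them. Over the 3 muscles 50 of 60 correlated best with their own number, a hint from the data only, since the labels do not say what a number marks. The block ended no call among the network genes. For cachectic against non-cachectic within a muscle, no paired analysis was possible because these groups share no numbers.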
